A study of Mus musculus with 6 samples.

Results

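The 9 RNAs described here are long noncoding transcripts of neurons that either stay in the nucleus or come from imprinted domains, named Kcnq1ot1, Meg3, Rian, Mirg, Malat1, Neat1, Miat, Snhg11 and Peg13. They were taken by symbol from 45495 usable gene names, and all 9 were found and all 9 passed the filter on low counts, which kept 15419 genes. Total RNA of prefrontal cortex homogenate was sequenced from mice at postnatal week 8, in 3 libraries heterozygous for the 16p11.2 duplication and 3 wild type libraries. The duplication covers the matching segment of mouse chromosome 7, and the line, begun on a C57BL/6N and 129Sv hybrid, was backcrossed for 10 generations to C57BL/6, the background that it kept. Libraries were stranded and depleted of ribosomal RNA with Ribo-Zero, so transcripts without a poly(A) tail could be counted. No label states whether each library is a separate animal, nor its sex, and p-values therefore measure the spread between these samples. Duplication libraries 1 to 3 held 21872271, 14891890 and 16038828 counts, and wild type libraries 1 to 3 held 12988457, 14369271 and 13889329.

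Imprinted long noncoding RNAs are transcribed from the chromosome of a single parent rather than from both. Kcnq1ot1 is made from the paternal copy of its domain, where it silences neighbouring genes, while Meg3, Rian and Mirg are made from the maternal copy of the Dlk1-Dio3 domain and carry many microRNAs and small nucleolar RNAs in their introns and exons. Malat1 gathers at nuclear speckles, where splicing factors are stored, Neat1 is the scaffold of paraspeckles, and Miat forms a separate nuclear domain in neurons. Snhg11 is the host transcript of small nucleolar RNAs, and Peg13 is an imprinted RNA made inside an intron of Trappc9.

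The deposited gene names had slipped against the counts, by 1 to 6 lines for 64.9% of the names used, so 5 of the 9 RNAs carried the counts of another line. Summed over the wild type libraries, Kcnq1ot1 held 0 counts under the name as deposited and 6430 after re-alignment, Malat1 2246 and 291873, Miat 0 and 5232, Snhg11 0 and 14648, and Neat1 0 and 441. Meg3 (33471), Rian (26852), Peg13 (11404) and Mirg (1592) lie before the first slip and kept their counts. Within 150 names on each side of each RNA, the offset of the series' rule was also the one at which counts fitted the annotation class of the names best, for 9 of 9 RNAs.

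The promoters of Kcnq1ot1 and Meg3 are shown because these RNAs had the largest differences among the 9 and both start within differentially methylated regions of their domains. Each window runs from 250 bases before to 50 after the annotated start (RefSeq, GRCm38.p6, the build called mm10 in the processing notes). Capitals mark CCAAT boxes, searched as CCAAT and its reverse complement ATTGG, in the Kcnq1ot1 window at chr7:143296498-143296797 on the minus strand. In the Meg3 window, chr12:109540746-109541045 on the plus strand, capitals mark the palindromic cyclic AMP response element TGACGTCA and the overlapping TATA box motifs TATAAA and TTTATA, its reverse complement.
Kcnq1ot1: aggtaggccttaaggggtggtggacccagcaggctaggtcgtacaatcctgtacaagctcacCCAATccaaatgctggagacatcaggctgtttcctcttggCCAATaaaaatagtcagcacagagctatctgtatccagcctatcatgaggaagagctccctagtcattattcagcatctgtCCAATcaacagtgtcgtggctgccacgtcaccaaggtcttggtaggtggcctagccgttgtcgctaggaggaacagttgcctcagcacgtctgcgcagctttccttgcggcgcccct
Meg3: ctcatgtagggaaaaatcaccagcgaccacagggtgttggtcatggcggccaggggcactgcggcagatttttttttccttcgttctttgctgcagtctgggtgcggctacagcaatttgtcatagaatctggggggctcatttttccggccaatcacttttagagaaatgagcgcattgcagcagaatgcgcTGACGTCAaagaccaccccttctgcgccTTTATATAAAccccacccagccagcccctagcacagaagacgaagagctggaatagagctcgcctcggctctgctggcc
The Kcnq1ot1 window held 3 CCAAT boxes on the strand printed, where 37.4% of 32851 promoter windows of this length held at least 1 and 3.37% held 3 or more. The response element of the Meg3 window occurred in 1.79% of windows and the TATA motif in 13.6%. A match is a string of letters, and binding was not measured. Promoter entries were found for 7 of the 9 RNAs.

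Among the microRNAs carried by the Dlk1-Dio3 transcripts, the following 5 are given as examples from each host, with the seed (bases 2 to 8) in capitals, from RefSeq.
mmu-miR-770-5p, in Meg3: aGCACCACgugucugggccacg
mmu-miR-370-3p, in Rian: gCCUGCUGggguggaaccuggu
mmu-miR-1188-5p, in Rian: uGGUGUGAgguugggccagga
mmu-miR-134-5p, in Mirg: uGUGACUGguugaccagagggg
mmu-miR-410-3p, in Mirg: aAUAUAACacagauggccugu
The 35 mature microRNAs placed inside Meg3, Rian or Mirg carried 34 different seeds, and the single shared seed, GGUUGCC, belonged to miR-453 and miR-496a-5p. Mirg alone hosted 14 hairpins with 26 mature forms. Mature microRNAs were not measured.

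All 9 RNAs had lower mean levels in duplication cortex, and for 7 of them every duplication library lay under every wild type library. The differences ran from a log2 fold change of -0.87 for Kcnq1ot1 to -0.03 for Neat1, with a median of -0.35 beside 0.01 over all genes tested. None of the 9 passed at an adjusted p under 0.05 in the edgeR quasi-likelihood test with Benjamini-Hochberg adjustment over all genes, where 0% of the 15419 genes passed. At an unadjusted p under 0.05 the count was 7 of 9, all lower, against 12.2% of all genes lower and 19.2% in either direction. Groups that did not overlap, with duplication lower, were found for 7 of 9 RNAs and for 10.5% of all genes (22.1% in either direction). The 9 RNAs were chosen with earlier results of these data known, so these shares are no test of the list. limma-voom called 0 of the 9 and 0 of all genes. DESeq2 called 4, all lower, where it called 1.85% of all genes in either direction and 1.55% lower. Without wild type library 2, edgeR passed 6 of the 9, beside 15.3% of all genes in either direction and 10.7% lower. Without both libraries numbered 2 the count was again 6, beside 8.49% of all genes (7.02% lower), and with no filter on low counts it was 5, beside 3.84% (3.19% lower). With the replicate number as a block it was 0, beside 0.0454% of all genes (0.00649% lower). In a homogenate, fewer cells of a type and less RNA per cell cannot be told apart.

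**Figure D1:**
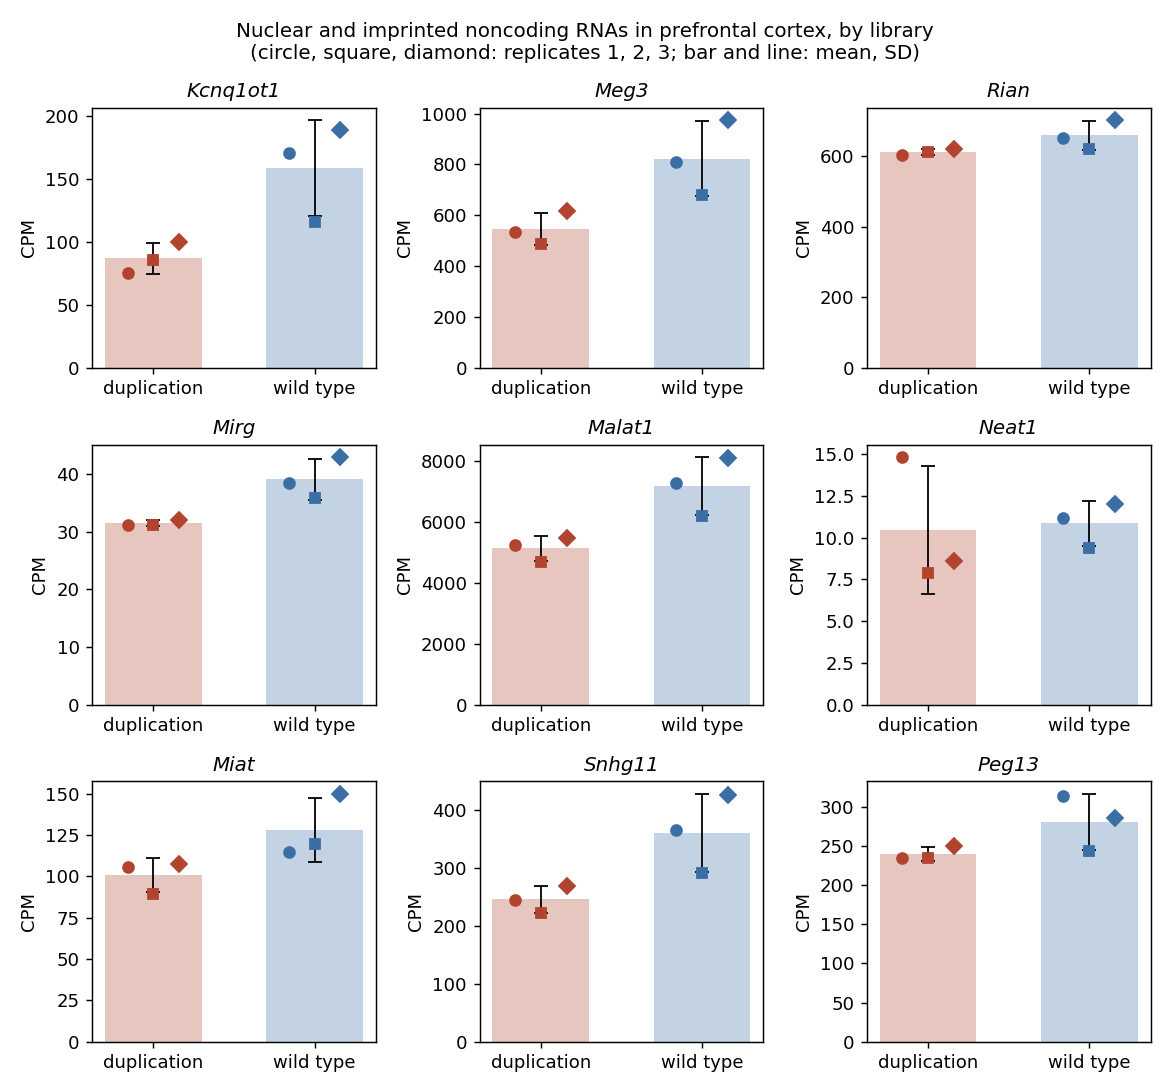
Level of each RNA in CPM (counts scaled to library size with TMM factors, axes from 0), with 1 point per library, duplication left and wild type right, and bars for the mean and SD (n = 3 each). For 7 RNAs the points do not overlap, with duplication lower, while those of Neat1 and Peg13 do.

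Kcnq1ot1, the silencing RNA of the Kcnq1 domain, is a single exon of 93092 bases at chr7:143203458-143296549 on the minus strand, typed as antisense. Its level in CPM, counts scaled to library size, was 75.4, 85.7 and 99.7 in duplication libraries 1 to 3, and 171, 116 and 189 CPM in wild type libraries 1 to 3. The groups did not overlap, and wild type library 2 lay nearest to the duplication libraries. Means were 86.9 ± 12.2 CPM in duplication and 159 ± 38.4 CPM in wild type (SD, n = 3 each), so the duplication level was 54.8% of the wild type level. The log2 fold change was -0.87 ± 0.17 (SE, 95% interval -1.25 to -0.48), with an unadjusted p of 0.000639 and an adjusted p of 0.163 in the edgeR quasi-likelihood test, and DESeq2 gave an adjusted p of 6.93e-05. Kcnq1ot1 lies on the same chromosome as the duplicated segment but lies 16.2 Mb beyond the last listed gene of it.

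Kcnq1ot1 runs antisense to Kcnq1, a potassium channel gene that had only 31 counts summed over the duplication libraries and 30 over the wild type libraries and was not tested. Of 12 listed genes of the domain, 6 were tested and none had an unadjusted p under 0.05, and their log2 fold changes had a median of 0.04. Cdkn1c, a cell cycle inhibitor silenced on the paternal copy in mouse, had 7.001 ± 0.982 CPM in duplication and 6.05 ± 1.06 CPM in wild type, a log2 fold change of 0.21 ± 0.16 (SE). Cd81, a tetraspanin, had a log2 fold change of 0.03 ± 0.06 (SE), Nap1l4, a histone chaperone, 0.12 ± 0.07, and Osbpl5, an oxysterol-binding protein, -0.17 ± 0.10. These neighbours of Kcnq1ot1 therefore showed differences of either sign and smaller than its own.

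Meg3 is the first of 3 transcripts in tandem on the plus strand of chromosome 12, with 8 merged exons, at chr12:109541001-109571726. It had 534, 489 and 616 CPM in duplication libraries, against 811, 682 and 975 CPM in wild type libraries. Again the groups did not overlap, and wild type library 2 was the lowest of its group. Meg3 averaged 546 ± 64.3 CPM in duplication and 822 ± 147 CPM in wild type (SD, n = 3 each), a log2 fold change of -0.59 ± 0.13 (SE, 95% interval -0.88 to -0.30) with an adjusted p of 0.170 by edgeR's quasi-likelihood test and 0.00218 by DESeq2.

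Rian, which hosts some of the small nucleolar RNAs of the domain, spans chr12:109603940-109661716 with 19 merged exons. Its levels were 602, 612 and 619 CPM in duplication and 653, 621 and 702 CPM in wild type, groups that sat side by side without overlapping. The log2 fold change was -0.11 ± 0.06 (SE, 95% interval -0.25 to 0.03, edgeR adjusted p = 0.354), so a value of 0 lay inside the interval. Mirg, the microRNA host at chr12:109729764-109749460, had 31.2, 31.2 and 32.1 CPM in duplication against 38.4, 35.8 and 42.9 CPM in wild type. Duplication libraries were within 1 CPM of each other and all under the wild type ones, with a log2 fold change of -0.31 ± 0.08 (SE, edgeR adjusted p = 0.174).

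Ratios within a library do not depend on library size, and they set the 3 transcripts against each other. Rian counts were 1.128, 1.251 and 1.005 times Meg3 counts in duplication libraries, against 0.805, 0.911 and 0.72 times in wild type libraries. On the log2 scale the ratio averaged 0.17 ± 0.16 in duplication and -0.31 ± 0.17 in wild type (SD, n = 3 each), without overlap, a difference of 0.47 (0.39 to 0.56 when each library was left out in turn). Mirg over Rian was 0.0517, 0.0509 and 0.0518 in duplication and 0.0589, 0.0577 and 0.0611 in wild type, a log2 difference of -0.20 without overlap. For Mirg over Meg3 the groups overlapped. These ratios were not tested.

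**Figure D2:**
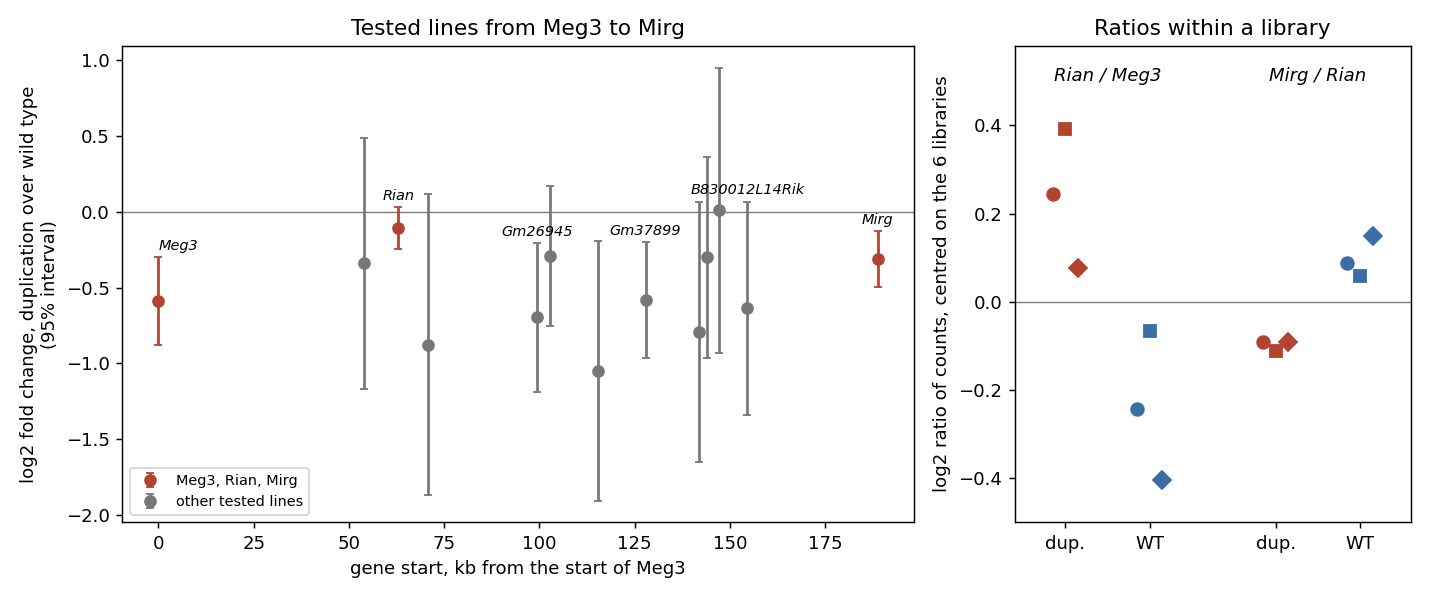
Left, log2 fold changes of duplication over wild type with 95% intervals for tested lines, by distance in kb from the start of Meg3; right, log2 ratios of counts in each library (circles, squares and diamonds for libraries 1 to 3), centred on the 6 libraries, with duplication left of wild type. Uncentred, the Rian to Meg3 ratio is 1.005 to 1.251 in the duplication libraries and 0.72 to 0.911 in the wild type libraries.

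Small RNA genes of the same domain gave few counts. The 66 microRNA hairpin lines between Dlk1 and Dio3, of which 54 had counts, summed to 9.96, 10.6 and 12.4 CPM in duplication libraries and to 19.9, 13.02 and 18.3 CPM in wild type libraries. These sums of 10.96 ± 1.25 CPM in duplication and 17.1 ± 3.61 CPM in wild type did not overlap, with a log2 ratio of the means of -0.64. They rest on 157 to 219 counts per duplication library and 188 to 252 per wild type library, and hairpin reads cannot be told apart from reads of the host transcripts. The 23 small nucleolar RNA lines summed to 6.64, 7.40 and 8.41 CPM in duplication and 10.7, 7.97 and 10.6 CPM in wild type, and the groups overlapped.

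Of the protein-coding genes of this domain, Dlk1 and Rtl1 were barely detected in either group. Dlk1, a Notch ligand relative, had 3 counts over the duplication libraries and 4 over the wild type libraries, and Rtl1, a retrotransposon-derived gene, had 1 over the duplication libraries and 3 over the wild type libraries. Dio3, a thyroid hormone deiodinase, had a log2 fold change of -0.66 ± 0.50 (SE), and Begain, a postsynaptic protein gene at the edge of the domain, 0.10 ± 0.08, at 73.0 ± 4.21 CPM in duplication and 68.4 ± 5.70 CPM in wild type.

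Peg13, an unspliced RNA of 4725 bases typed as sense intronic, lies inside Trappc9 at chr15:72805600-72810324 on the minus strand. It had 235, 235 and 249.98 CPM in duplication libraries and 314, 243 and 286 CPM in wild type libraries. Wild type library 2 lay under duplication library 3, so the groups overlapped, and the log2 fold change was -0.23 ± 0.09 (SE, edgeR adjusted p = 0.222). Trappc9, a vesicle trafficking gene, shares no exon base with Peg13 but runs on the same strand over all 4725 bases of it. Reads of unspliced Trappc9 RNA there cannot be told apart from Peg13 reads. Trappc9 averaged 58.7 ± 6.56 CPM in duplication and 65.6 ± 5.86 CPM in wild type, a log2 fold change of -0.16 ± 0.10. Peg13 counts were 4.59, 3.80 and 3.96 times those of Trappc9 in duplication and 4.37, 4.04 and 4.401 times in wild type, which overlapped.

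Of the 4 tested neighbours of Peg13, 2 had an unadjusted edgeR p under 0.05, both lower (12.2% of all genes were). Kcnk9, a potassium leak channel expressed from the maternal copy, had 12.6, 13.7 and 14.6 CPM in duplication and 17.8, 15.7 and 19.5 CPM in wild type, without overlap (log2 fold change -0.38 ± 0.11, SE, edgeR adjusted p = 0.174). Ago2, the Argonaute protein of microRNA silencing, had 51.1, 74.1 and 80.8 CPM in duplication and 121, 72.4 and 126 CPM in wild type, where wild type library 2 lay among the duplication libraries (log2 fold change -0.63 ± 0.22, edgeR adjusted p = 0.189). Over the 12 tested imprinted genes of the Dlk1-Dio3, Kcnq1 and Peg13 domains together, none passed the edgeR or DESeq2 threshold, 2 had an unadjusted edgeR p under 0.05, and the median log2 fold change was -0.01. That median was 0.01 with upper-quartile factors and 0.0009 with library size only.

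Malat1 was the most abundant of the 9 RNAs. This single-exon speckle RNA, at chr19:5795690-5802672 on the minus strand, had 5240.2, 4674 and 5477 CPM in duplication libraries against 7265, 6179.8 and 8073 CPM in wild type libraries. No duplication library reached the lowest wild type library. Malat1 averaged 5131 ± 412 CPM in duplication and 7173 ± 949.8 CPM in wild type (SD, n = 3 each), and its log2 fold change was -0.48 ± 0.10 (SE, 95% interval -0.71 to -0.26), with an adjusted p of 0.163 by edgeR's quasi-likelihood test and 0.00300 by DESeq2.

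Neat1, whose gene ends 22035 bases from that of Malat1, had the value nearest to 0 among the 9. The paraspeckle RNA had 14.8, 7.87 and 8.60 CPM in duplication libraries and 11.1, 9.35 and 12.03 CPM in wild type libraries, from 117 to 326 counts per duplication library and 135 to 165 per wild type library. Duplication library 1 was the highest of all 6 and the other two duplication libraries were the lowest, so the groups overlapped. Its log2 fold change was -0.03 ± 0.23 (SE, 95% interval -0.55 to 0.49, edgeR adjusted p = 0.954), an interval that holds the Malat1 value. Leaving out duplication library 1 gave -0.39 ± 0.15 (SE, edgeR adjusted p = 0.492, with an unadjusted p under 0.05), and leaving out duplication library 2 gave 0.13. The log2 ratio of Neat1 to Malat1 counts averaged -9.00 ± 0.46 in duplication and -9.37 ± 0.02 in wild type (SD, n = 3 each), without overlap. By library it was -8.47, -9.21 and -9.32 in duplication and -9.35, -9.37 and -9.39 in wild type. Duplication library 1 thus stood apart, and duplication library 3 lay close to wild type library 1. Of 6 tested genes around Malat1 and Neat1, none had an unadjusted p under 0.05, and their median log2 fold change was -0.03.

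Miat, an RNA of 6 merged exons at chr5:112213228-112229395 on the minus strand, had 106, 89.0 and 108 CPM in duplication and 114, 119.75 and 149.8 CPM in wild type. The groups did not overlap, though duplication library 3 and wild type library 1 were close. The log2 fold change was -0.35 ± 0.11 (SE, edgeR adjusted p = 0.179). Snhg11, at chr2:158375638-158386145 on the plus strand and typed as protein coding in the annotation, had 245, 222 and 269 CPM in duplication and 366, 291 and 425 CPM in wild type. Every duplication library lay under every wild type library, and the log2 fold change was -0.55 ± 0.13 (SE, 95% interval -0.84 to -0.26), with an adjusted p of 0.173 by edgeR's quasi-likelihood test and 0.00569 by DESeq2.

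**Figure D3:**
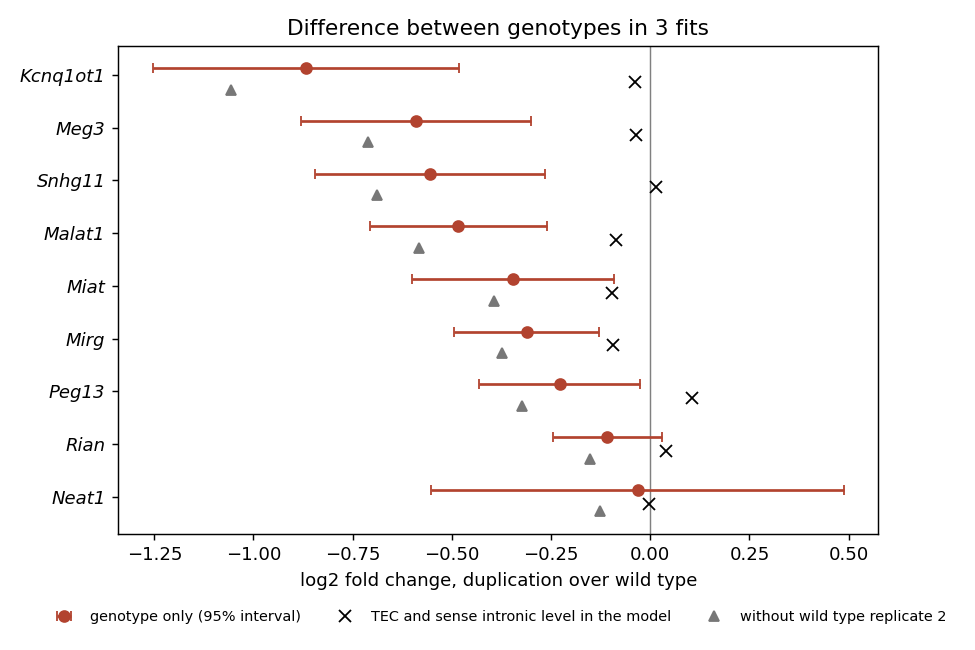
Log2 fold changes of duplication over wild type with 95% intervals for each RNA, from genotype only (circles), with the mean level of TEC and sense intronic genes as a term (crosses) and without wild type library 2 (triangles). Values run from -0.87 for Kcnq1ot1 to -0.03 for Neat1 with genotype only and lie between -0.10 and 0.11 with that term.

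Per kilobase of exon, the RNAs spanned a wide range of levels, led by Malat1 at 735 ± 59.1 CPM per kb in duplication and 1027 ± 136 in wild type. In wild type Peg13 (59.5 ± 7.54 CPM per kb), Meg3 (45.5 ± 8.13), Snhg11 (42.3 ± 7.90) and Rian (36.1 ± 2.26) followed, and each overlapped its neighbour in that order. In duplication Peg13 (50.8 ± 1.86 CPM per kb) stood clear, and Rian (33.5 ± 0.446) had a higher level per kilobase than Snhg11 (28.8 ± 2.72) without overlap, and a higher mean than Meg3 (30.2 ± 3.55). Miat, Mirg, Kcnq1ot1 and Neat1 came last in this order in both groups. Kcnq1ot1 had only 0.934 ± 0.131 CPM per kb in duplication and 1.70 ± 0.412 in wild type, spread over its very long exon, and Neat1 had 0.502 ± 0.184 in duplication and 0.522 ± 0.0658 in wild type.

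**Figure D4:**
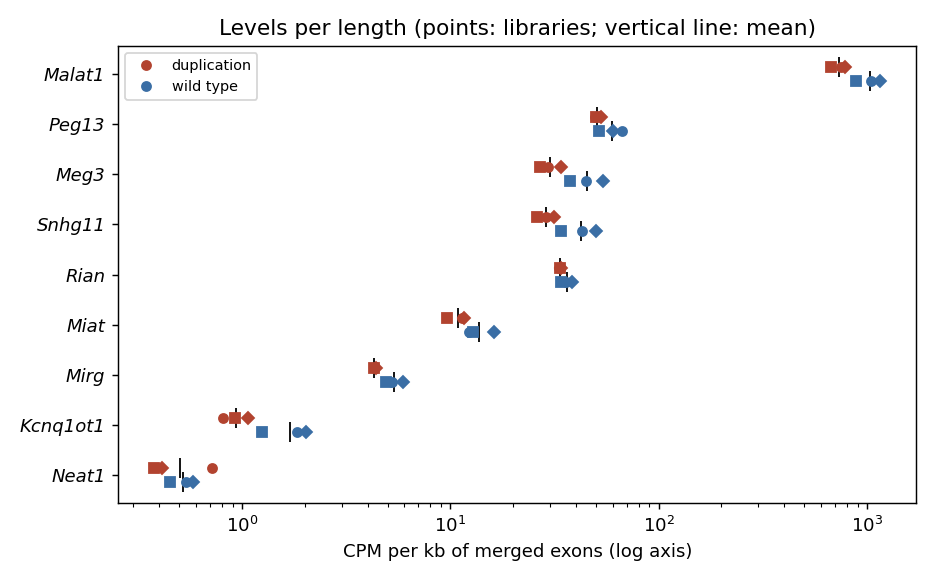
Level per kilobase of merged exons (CPM per kb, log axis) for each RNA, duplication above wild type, with points for libraries and a line at each mean. Malat1 is highest at 735 in duplication and 1027 in wild type, and Neat1 lowest at 0.502 in duplication and 0.522 in wild type.

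Lower levels in duplication were also frequent in a pair of other transcript classes. TEC genes, which are unspliced clusters of expressed sequence tags, and sense intronic transcripts, which lie in introns on the strand of their host gene, were counted in the same fit. Of 254 tested TEC genes 134 (52.8%) had an unadjusted edgeR p under 0.05 and were lower, at a median log2 value of -0.70, and of 37 sense intronic genes 21 (56.8%) were, with a median of -0.84. Over all genes the share was 12.2%. It was 12.8% of 242 lincRNA genes, 16.2% of 185 processed transcripts, 3.08% of 227 antisense genes and 1428 of 12963 protein-coding genes, all without the 9 RNAs.

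The mean log2 CPM of these 291 TEC and sense intronic genes, centred on the 6 libraries, was -0.44, -0.43 and -0.12 in duplication libraries and 0.47, 2.36e-05 and 0.53 in wild type libraries. The groups did not overlap, and wild type library 2 was the lowest of its group, as it was for 8 of the 9 RNAs, Miat being the exception. With this level in the edgeR model, at 3 residual degrees of freedom, the log2 fold change was -0.04 ± 0.13 (SE) for Kcnq1ot1, -0.04 ± 0.13 for Meg3 and -0.09 for Malat1. It was 0.016 for Snhg11, 0.039 for Rian and 0.11 for Peg13, whose sign turned. The lowest unadjusted p among the 9 was 0.388 in that edgeR fit, which called none of the 9 and 0 of all genes, with 444 genes at an unadjusted p under 0.05. Because that level differs between the groups without overlap, its part and that of the genotype cannot be told apart.

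**Figure D5:**
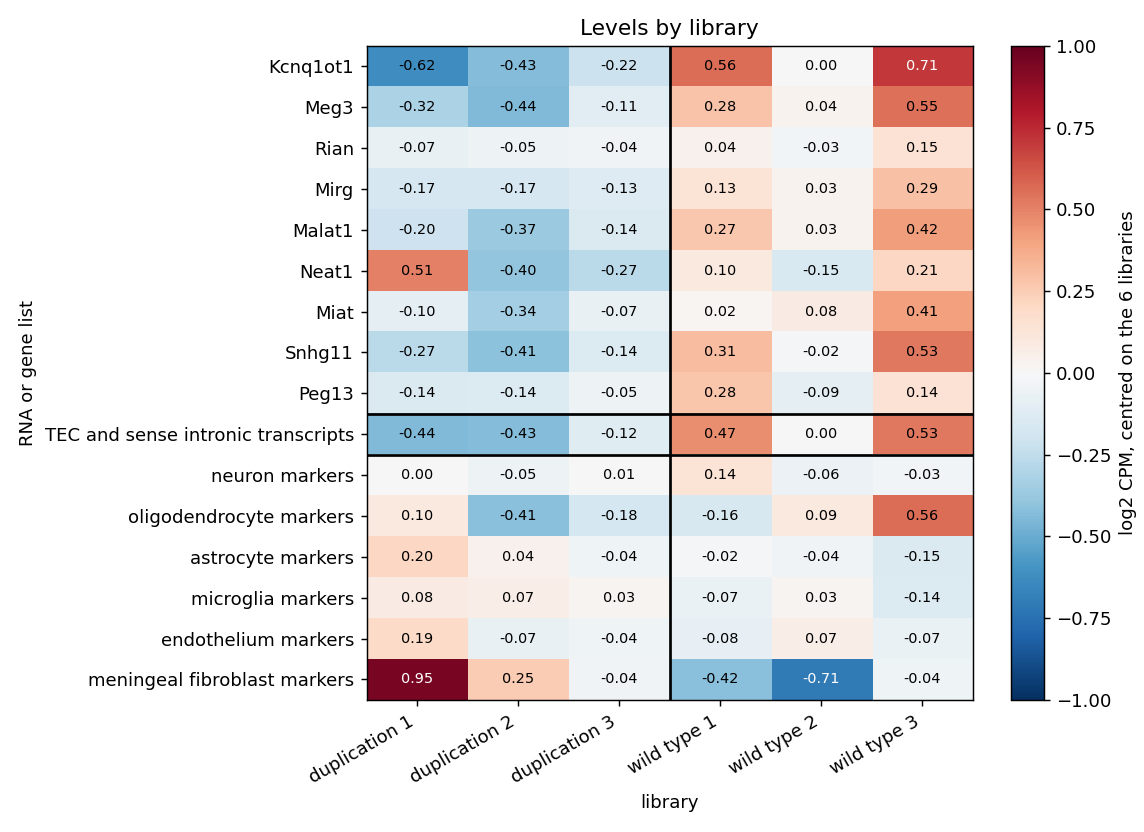
Log2 CPM of the 9 RNAs, and its mean over TEC and sense intronic transcripts and over the markers of each cell type, each centred on the 6 libraries, with duplication libraries left. Kcnq1ot1 runs from -0.62 to -0.22 in duplication and from -0.00203 to 0.71 in wild type, and the TEC level from -0.44 to -0.12 in duplication and from 2.36e-05 to 0.53 in wild type.

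Genes whose profile over the 6 libraries was closest to that of Kcnq1ot1 were Gm37677, RP24-170C14.2, Gm37880, Gm9916 and Dscaml1, at root mean square differences of 0.0467 to 0.0838 in centred log2 CPM. Gm37677 and Gm37880 are TEC genes, Gm9916 is a lincRNA gene and Dscaml1 encodes a neuronal cell adhesion molecule. Among the genes closest to the mean profile of Meg3, Rian and Mirg were Nek1, Setdb1, Cep295 and Tdp1, all protein coding, at 0.0371 to 0.0412.

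Markers of each listed cell type were found in all libraries, with none of the listed markers at 0 in any. Summed neuron markers were 6341 to 6635 CPM in duplication and 6186 to 6711 CPM in wild type, and oligodendrocyte markers 1185 to 1597 CPM in duplication and 1324 to 2279 CPM in wild type. Both ranges overlapped. The 6 oligodendrocyte markers had a median log2 fold change of -0.34, with 0 at an unadjusted edgeR p under 0.05, beside the median of -0.35 for the 9 RNAs. Wild type library 3, the highest library for 7 of the 9 RNAs, was also the highest for oligodendrocyte markers. In duplication library 1 and wild type library 1 the mean centred log2 CPM of these markers was 0.099 and -0.16. Kcnq1ot1 had -0.62 and 0.56 in those libraries, Malat1 -0.205 and 0.266, and Neat1 0.51 and 0.099. Meningeal fibroblast markers were 25.7 to 53.9 CPM in duplication and 18.4 to 27.3 CPM in wild type, ranges that overlapped. Of these markers 4 of 6 were higher at an unadjusted edgeR p under 0.05 (7.05% of all genes were). Their sum was highest in duplication library 1, as was Neat1. Astrocyte markers were 1420.4 to 1572 CPM in duplication and 1250.3 to 1443 CPM in wild type, microglia markers 343 to 358 CPM in duplication and 300.04 to 341 CPM in wild type, and endothelium markers 109.7 to 132 CPM in duplication and 109.3 to 119.9 CPM in wild type. Of these, the microglia sums did not overlap, at 342.61 CPM in the lowest duplication library and 340.96 CPM in the highest wild type library. Their mean centred log2 CPM did overlap, at 0.0282 in duplication library 3 and 0.0299 in wild type library 2. Of the 6 microglia markers 0 had an unadjusted edgeR p under 0.05, and 22.1% of all genes had groups that did not overlap. Among 6 astrocyte and 6 endothelium markers, 1 of each list was higher at that p (7.05% of all genes) and 0 lower. The part of cell types in the differences of the 9 RNAs was not tested. Xist, the RNA of the inactive X chromosome, had 0, 2090 and 2567 counts in duplication libraries and 0, 2130 and 3531 counts in wild type libraries. With its presence as a covariate, an alternative chosen after seeing the data, the 9 log2 fold changes ran from -0.87 to -0.09. In that edgeR fit 0 of the 9 and 0 of all genes passed.

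Proteins known to bind Malat1, Neat1 or Miat were read in the same fit. Of 20 listed genes, none passed in edgeR, 6 were lower and 2 higher at an unadjusted p under 0.05 (12.2% and 7.05% of all genes), and DESeq2 called 3, all lower (1.55% of all genes). Sfpq, a core paraspeckle protein, averaged 87.1 ± 6.73 CPM in duplication and 120.0 ± 17.3 CPM in wild type (SD, n = 3 each), a log2 fold change of -0.46 ± 0.11 (SE). Taf15, an RNA-binding protein, averaged 11.2 ± 0.522 CPM in duplication and 16.1 ± 1.99 CPM in wild type (log2 fold change -0.52 ± 0.11). In both genes the groups did not overlap. Nono, the partner of Sfpq in paraspeckles, had a log2 fold change of 0.05 and Pspc1, another paraspeckle protein, of -0.04. The median of the 20 was -0.07.

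Other noncoding RNAs of brain, listed with earlier results known, were counted in the same fit. Of 30 listed, 21 were tested, and 6 were lower and 0 higher at an unadjusted edgeR p under 0.05 (12.2% and 7.05% of all genes), with a median of -0.13 on the log2 scale. Mir124a-1hg, a host of the neuronal microRNA miR-124, had 29.4, 26.4 and 31.1 CPM in duplication against 38.0, 38.2 and 42.4 CPM in wild type, a log2 fold change of -0.45 ± 0.08 (SE, edgeR adjusted p = 0.162). Ftx, a noncoding gene of the X inactivation centre, had a log2 fold change of -0.58 ± 0.15, and Rmrp, the RNA of a ribosomal RNA processing enzyme, of -0.17 ± 0.05.

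Genes on the opposite strand that overlap Meg3, Miat and Malat1 held 0 to 46 counts per group. Kcnq1, opposite Kcnq1ot1 over 93092 bases, held 31 counts over the duplication libraries and 30 over the wild type libraries, but shares only 121 exon bases with it. Which strand setting HTSeq was run with is not stated. Without strand, reads from exon bases that such pairs share cannot be told apart. Likewise, reads of unspliced Kcnq1 RNA could then not be told apart from Kcnq1ot1 reads over all 93092 bases. As a check of the labels, the 16 listed genes inside the duplicated segment had a median log2 fold change of 0.77, with 16 of 16 higher at an unadjusted edgeR p under 0.05 (7.05% of all genes were higher at that p), and the smallest adjusted p was 0.129.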

How the data were processed

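Per the submitters' processing notes, cutadapt, TopHat2 and HTSeq were used on build mm10, with no versions given. The authors deposited unnormalized whole counts for each gene, in 1 joint table and in 6 library tables, which were equal to it. The joint table has 45807 lines of counts and 45801 names. Names were re-aligned to counts by offsets that step from 0 to 6 at 6 breaks, and 306 names within 25 lines of a break were not used, which left 45495 names and 312 unnamed lines. Unnamed lines, 0.606% to 0.636% of a library's counts, stayed out of library sizes and tests. Of used names, 91.7% were found in a GENCODE annotation of the same build, which gave positions and classes.

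Groups follow the genotype label. edgeR 4.0.16 in R 4.3.3 was used with TMM factors, filterByExpr by group and its quasi-likelihood F-test, calling genes at a Benjamini-Hochberg adjusted p under 0.05, on 15419 genes (square root of the common dispersion 0.0951), with scripts tested on simulated data. DESeq2 1.42.0 and limma 3.58.1 (voom), other factors, filters, left-out libraries, the replicate block and a covariate were alternatives. Log2 CPM used a prior count of 2. Motifs were searched as exact letters on both strands. Counts were 12988457 to 21872271 per library. Reads carried no molecular identifiers, so copies of a molecule made by PCR count as separate reads. The 9 RNAs and all gene lists were chosen with earlier results of these data known. From each list the genes named are those called or the 3 with the smallest unadjusted p, beside tested genes of the imprinted domains and the 5 genes closest in profile. Nono and Pspc1 were named after their values were seen. Some genes that this rule names are not reported here.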

Additional observations from a re-analysis of the deposited data

How the results depend on the processing

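The 9 RNAs gave 167 values under the alternatives, of which 138 kept their direction and their side of the threshold, 21 passed it and 8 turned sign. None passed in the main fit, so keeping the side means staying uncalled. The 138 include values near 0, such as -0.04 for both Kcnq1ot1 and Meg3 with the TEC and sense intronic level as covariate. They also include Meg3, Rian, Mirg and Peg13 with names as deposited, which rest on unchanged counts. DESeq2 called Kcnq1ot1 (-0.87), Meg3 (-0.60), Malat1 (-0.49) and Snhg11 (-0.56), which is 4 of the 9, 3 of the RNA partners and 285 of all genes. With no filter on low counts edgeR called Kcnq1ot1 (-0.86), Meg3 (-0.58), Malat1 (-0.47), Miat (-0.34) and Snhg11 (-0.54), which is 5 of the 9, 4 partners, 1 imprinted neighbour and 1016 genes (3.84%, 3.19% lower). Without both libraries numbered 2 it called Kcnq1ot1 (-1.04), Meg3 (-0.63), Mirg (-0.36), Malat1 (-0.51), Snhg11 (-0.62) and Peg13 (-0.30), with Neat1 at 0.038, which is 6 of the 9, 7 partners, 1 imprinted neighbour and 1324 genes (8.49%, 230 higher and 1094 lower). The cause was not tested.

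Leaving out each library in turn gave -1.06 to -0.72 for Kcnq1ot1, -0.71 to -0.45 for Meg3, -0.15 to -0.06 for Rian, -0.37 to -0.24 for Mirg, -0.58 to -0.39 for Malat1, -0.39 to 0.13 for Neat1, -0.42 to -0.22 for Miat, -0.69 to -0.42 for Snhg11 and -0.32 to -0.14 for Peg13. Neat1 was -0.39 without duplication library 1 and turned to 0.13 without duplication library 2, 0.09 without duplication library 3 and 0.05 without wild type library 3. Counts called ran from 0 to 6 of the 9, 0 to 9 partners, 0 to 2 imprinted neighbours and 0 to 2404 genes, and every count above 0 came without wild type library 2 (727 genes higher, 1677 lower). The Rian to Meg3 difference ran from 0.392 to 0.561 and the Mirg to Meg3 difference from 0.204 to 0.35. With the TEC and sense intronic level as covariate Rian was 0.039, Snhg11 0.016 and Peg13 0.11. With names as deposited Malat1 was 0.027, since that name then stood against other counts, and Kcnq1ot1, Neat1, Miat and Snhg11 gave no value.

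With the replicate number as a block (replicate block), edgeR passed 0 of the 9 and 7 genes (6 higher, 1 lower), and the smallest adjusted p of the 9 was 0.0507, for Meg3. Same-numbered libraries had correlations of 0.102, 0.0626 and 0.311 of their deviations, and 4 of 6 libraries correlated best with their own number. Xist had 0 counts in duplication library 1 and in wild type library 1 only. No label states a pairing, so the main fit held no block, and whether the numbers pair libraries was not tested. A block changed no other call. Depth leaves few counts for the small RNA lines.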

Other observations

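Imprinted genes of other domains were counted in the same fit. Of 36 listed, 29 were tested, 4 were higher and 4 lower at an unadjusted edgeR p under 0.05 (7.05% and 12.2% of all genes), and the median log2 fold change was -0.04. Groups did not overlap for 5 of the 29, all higher in duplication (11.7% of all genes), and for 0 with duplication lower (10.5%). The 5 were Igf2, Impact, Sgce, Gnas and Nap1l5, of which the last 3 were named after their values were seen. Igf2, a growth factor that is also a meningeal marker, had the value 1.07 ± 0.26 (SE), Impact, a regulator of translation, 0.20 ± 0.07, and Zdbf2, a paternally expressed gene, -0.67 ± 0.22.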
